A study of Homo sapiens with 16 samples.

Results

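The 8 genes described here make or control the making of sterols and fatty acids: SREBF1, SREBF2, SCAP, INSIG1, INSIG2, FASN, ACACA and SCD. Their m6A (N6-methyladenosine) peaks were taken as every region of the deposited merged peak list, and every peak of the 8 deposited antibody-enriched (IP) lists, that overlapped the GENCODE span of one of the genes by at least 1 bp. This gave 8 of the 36970 merged regions and 53 of the 191974 peaks, which lay at 11 sites. Of the 8 genes, 4 held a peak (SREBF1, SCAP, ACACA and SCD) and 4 held none in any list (SREBF2, INSIG1, INSIG2 and FASN). Over all 20033 protein-coding genes, 58.6% overlapped a peak of some list.

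MeRIP-seq pulls down RNA fragments with an antibody to m6A and compares them with unenriched input RNA of the same cells. The study compared C4-2B, a human prostate cancer line sensitive to enzalutamide, with MDV-R, a resistant line derived from C4-2B by serial passage, to ask how their RNA methylation differs. Enzalutamide is a drug used to treat prostate cancer. Each line had 4 IP and 4 input libraries, all labelled wild type and day 3, and the labels give RPMI with 10% fetal bovine serum for all. The study's methods add that MDV-R was kept in medium with enzalutamide, so the line and its exposure to the drug cannot be told apart. MDV-R is a single derived line, so the comparison is between 2 cell lines and not between independent cases of resistance. Sample titles of MDV-R hold a second cell line name, and the cell line field was followed. All 11 prostate luminal markers checked, KLK3 among them, held merged regions, against 5 of 13 markers of bladder lines. The merged list pools both lines, so these counts do not describe MDV-R alone. Every prostate marker except TRPM8 had a region called in an MDV-R list. Of the bladder markers, VIM, UPK2 and UPK3A did, while the CD44 and SNAI2 regions were called in C4-2B lists only. Nothing in the labels says whether the 4 replicates were separate cultures, so the spread between them may be technical.

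The proteins form one control loop. SREBF1 and SREBF2 encode the SREBP transcription factors, which are made as membrane proteins of the endoplasmic reticulum. When sterols are low, SCAP escorts them to the Golgi, where they are cut and freed to switch on genes of lipid synthesis, and when sterols are high, INSIG1 and INSIG2 hold SCAP back. ACACA (acetyl-CoA carboxylase alpha) makes malonyl-CoA, FASN (fatty acid synthase) builds palmitate from it, and SCD (stearoyl-CoA desaturase) adds a double bond to saturated fatty acids. Prostate cancer cells are known for a high rate of this synthesis.

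The antibody's target base lies mostly in the consensus DRACH (A, G or T, then A or G, then AC, then A, C or T), as the A before the C. GGAC is a strong form of this wider consensus. The motif GGAC was searched on the strand of the gene within 50 nt of each summit, the base of highest pileup in a peak. Each sequence below holds the GGAC nearest to some or all of the summits at a site that carries the results. Not every summit of a site had a GGAC within 50 nt. All are from the hg38 genome, 5′ to 3′ on the minus strand except for SCD, which is on the plus strand, with the motif in capitals.
SCAP intron 1 (chr3:47468777-47468796): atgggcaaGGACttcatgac
SCAP exon 23, first group of summits (chr3:47413993-47414012): aactacggGGACctgttaca
SCAP exon 23, second group of summits (chr3:47413924-47413943): ctggtgctGGACaacgctgc
ACACA exon 1 (chr17:37406712-37406731): gtgcccgaGGACtgggagga
SREBF1 upstream of its start (chr17:17837376-17837395): caggcctgGGACccctataa
SCD upstream of its start (chr10:100347211-100347230): tccacgcgGGACcgcccgcg

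Of the 53 summits, 39 lay inside one of the 4 genes. GGAC stood within 50 nt of 24 of the 39, or 61.5% (95% Wilson interval 45.9 to 75.1%, which treats summits as independent although most repeat the same few sites). On the opposite strand it stood near 11 of the 39 (28.2%). At 300 nt from the summit, equally wide windows contained it in 14 of 78 cases (17.9%). Over all exonic summits of the 8 lists the share was 46.9% ± 1.1 (SD over 8 lists) on the gene strand, 27.6% ± 0.903 on the opposite strand and 28.8% ± 0.313 at 300 nt. Intronic summits of all genes held it in 35.7% ± 0.565 on the gene strand. Any form of DRACH stood near 36 of the 39 member summits (92.3%), against 89.5% ± 0.905 of all exonic summits. The site in exon 2 of SREBF1 had no GGAC at any of its 5 summits, and the peaks in intron 10 of ACACA had none at any of 4. At the SREBF1 start, GGAC stood within 50 nt of the summits of C4-2B replicate 2 and MDV-R replicates 3 and 4 alone. At SCAP intron 1 it was missing at the summits of C4-2B replicate 3 and MDV-R replicate 4.

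**Figure D1:**
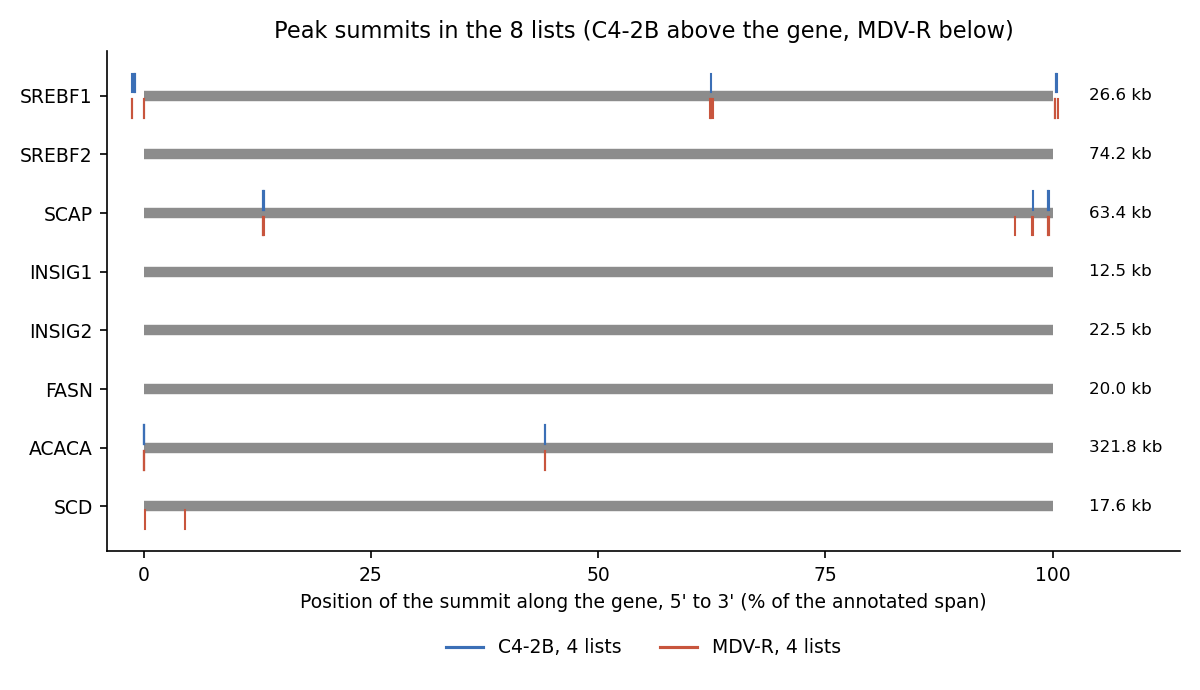
Summits of the 53 peaks along the 8 genes, from 5′ to 3′ as a percentage of each gene's annotated span, with C4-2B ticks above the grey bar and MDV-R ticks below it. The SREBF1 row shows summits in exon 2, mostly upstream of its start, and beyond its 3′ end in RAI1. SCAP had summits in intron 1 and near its 3′ end, ACACA at its start and in intron 10, and SCD at and just after its start. The other 4 bars are empty.

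The unit of comparison below is the fold enrichment that the peak caller gave, a ratio of IP pileup to local background, each with 1 added. Both sides of this ratio were recovered per summit. The IP side is given in tags (deduplicated reads) scaled to the mean IP library, and the background side in multiples of the library's average background. The IP libraries had similar depth, at 0.893 to 1.16 of their mean in C4-2B and 0.906 to 1.16 in MDV-R. The inputs did not. On the same scale they stood at 0.865 to 1.21 in C4-2B and 1.81 to 2.86 in MDV-R, without overlap, so input depth and line cannot be told apart, and 1 input tag weighs more in a C4-2B background. In bulk RNA, fewer cells with a mark and less of it per cell cannot be told apart either. C4-2B replicate 1 gave 13191 peaks, and the other 7 lists 23254 to 30645.

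The member genes held 3, 8, 5 and 6 peaks in C4-2B replicates 1 to 4, and 6, 8, 7 and 10 in MDV-R replicates 1 to 4. The 2 lines overlapped in this count, and the extremes were the shortest and the longest list. Of the 8 merged regions, 2 were called in all 8 lists, where 25.9% of all 36076 called regions were. Of the 11 sites, 3 were called in all 8, against 23.5% of 41765 regions when the lists are joined directly, as ACACA requires. No member region was called in all 4 lists of a line and in none of the other. Over all regions 3.68% were called so in MDV-R and 1.22% in C4-2B, the 1327 and 439 regions with an unadjusted p of 0.0286 in Fisher's exact test. That is the smallest p this design allows, and after Benjamini-Hochberg adjustment 0 of all regions (0%) passed.

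**Figure D2:**
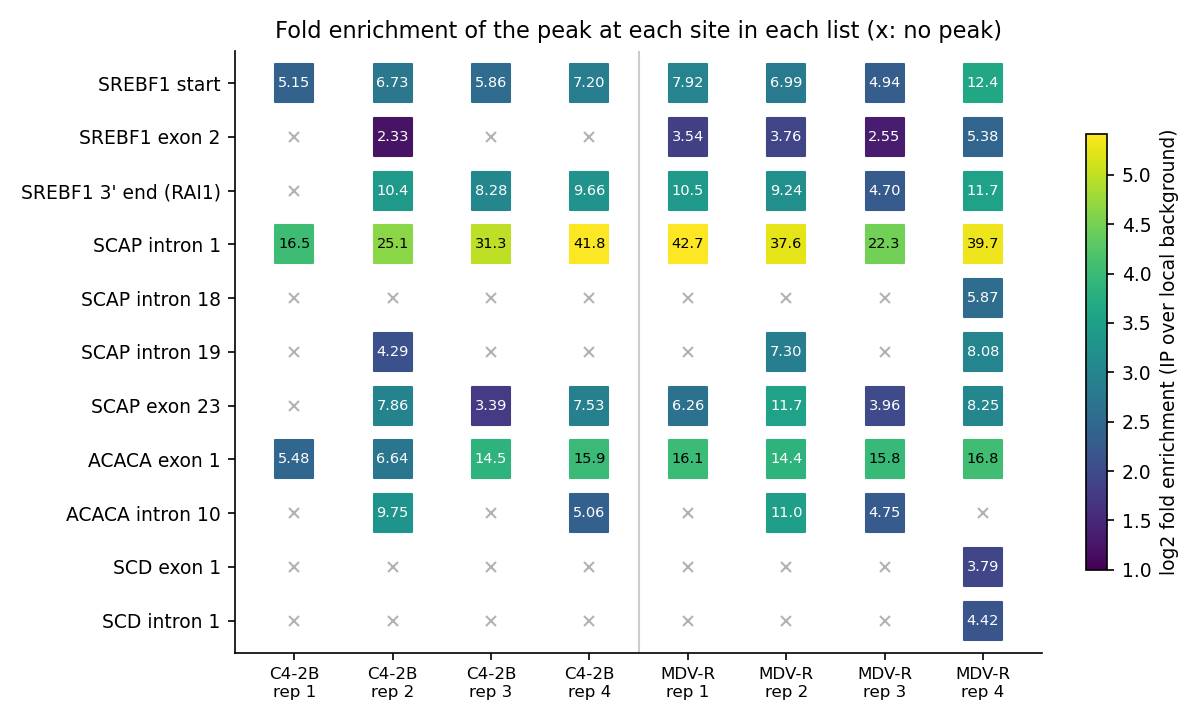
Fold enrichment (ratio, printed in each square and coloured on a log2 scale) of the peak at each of the 11 sites in each of the 8 lists, where a cross means no peak. SCAP intron 1, the SREBF1 start and ACACA exon 1 are filled in every column, SREBF1 exon 2 in 1 C4-2B and 4 MDV-R columns, and 3 sites only in MDV-R replicate 4.

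SREBF1 (ENSG00000072310, chr17:17810399-17837002, minus strand) encodes SREBP-1, the factor that mainly drives fatty acid genes. Its 3 merged regions differed in how much they belong to the gene. Only the one in exon 2 lay inside its span.

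The exon 2 region (chr17:17820201-17820756) lies in coding sequence of exon 2 of 19. It was called in 1 of 4 C4-2B lists and in all 4 MDV-R lists, which is the most uneven call among the members, with an exact two-sided Fisher p of 0.143 and an adjusted p of 0.997. Fold enrichment was 2.33 in C4-2B replicate 2 and 3.54, 3.76, 2.55 and 5.38 in MDV-R replicates 1 to 4. These are low ratios at a summit with many reads. The scaled IP tags were 97.4 in C4-2B replicate 2 and 74.9, 86.1, 73.0 and 66.4 in MDV-R. The local background was 122 times the library average in that C4-2B list and 61.6, 63.7, 95.7 and 40.8 times in MDV-R. The 1 called C4-2B list therefore had the most IP tags and the highest background of the 5, and the lowest ratio. No value exists for the other 3 C4-2B lists, where the caller reported nothing.

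At the 5′ end of SREBF1 a region of 1122 nt (chr17:17836813-17837934) was called in all 8 lists. Only 190 nt of it lay inside the span. Summits ran from -366 to -15 nt relative to the start of the MANE transcript (the representative one), and 7 of the 8 fell in sequence that GENCODE assigns to no gene. Peaks carry no strand, so RNA read upstream of the start on either strand could give them. Fold enrichment was 5.15, 6.73, 5.86 and 7.20 in C4-2B replicates 1 to 4 and 7.92, 6.99, 4.94 and 12.4 in MDV-R replicates 1 to 4. MDV-R replicate 4 was the highest and MDV-R replicate 3 the lowest of the 8, and the lines overlapped. The means were 6.24 ± 0.912 and 8.06 ± 3.15 (SD, n = 4 each).

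The difference in log2 fold enrichment at the SREBF1 start was 0.30 (SE 0.36, limma adjusted p = 0.589), MDV-R minus C4-2B, with a 95% interval of -0.41 to 1.02. It lay near the median of 0.44 over all 9327 regions tested, and it turned to -0.10 when each list was centred on its median. Scaled IP tags were 34.6, 50.2, 38.0 and 52.7 in C4-2B and 38.5, 43.0, 36.1 and 37.0 in MDV-R (difference -0.16, limma adjusted p = 0.507). The MDV-R values all fell within the C4-2B range.

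**Figure D3:**
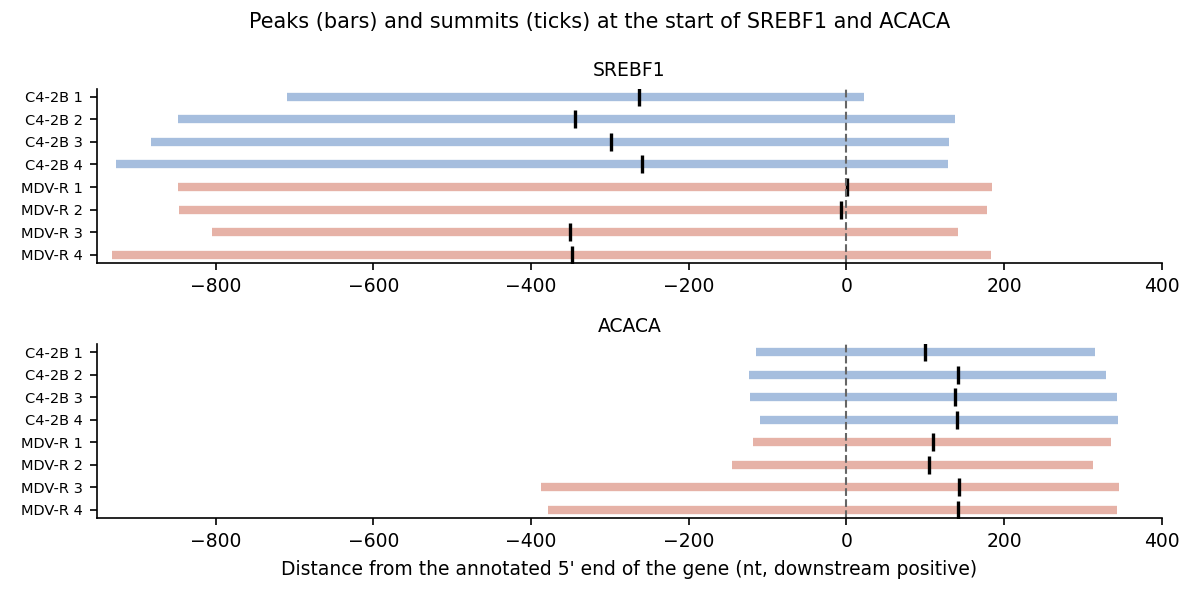
Peaks (bars) and summits (black ticks) at the 5′ ends of SREBF1 and ACACA, in nt from the annotated start of each gene with downstream positive, 1 row per list, C4-2B blue and MDV-R red. SREBF1 peaks lie mostly upstream of the dashed start line, with the summits of MDV-R replicates 1 and 2 next to the line, while all ACACA summits lie downstream of it.

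The third SREBF1 region (chr17:17809744-17811095) sits where SREBF1 and RAI1, a neighbour on the plus strand, end against each other. It was called in 3 C4-2B lists and all 4 MDV-R lists, C4-2B replicate 1 being the exception. All 7 summits (17810242 to 17810339) lay beyond the end of SREBF1 in the 3′UTR of RAI1, although 697 of the region's 1352 nt lay inside the SREBF1 span. Fold enrichment was 10.4, 8.28 and 9.66 in C4-2B replicates 2 to 4 and 10.5, 9.24, 4.70 and 11.7 in MDV-R. The lines overlapped, and MDV-R replicate 3 was the lowest. With regions called in at least 3 lists of each line, the log2 difference was -0.14 (SE 0.36, limma adjusted p = 0.821), fitted without the missing list.

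SCAP (ENSG00000114650, chr3:47413681-47477126, minus strand), the escort of the SREBPs, held 4 merged regions, all inside its span, and the strongest peak among the members. That peak lies in intron 1 of the 23-exon MANE transcript (chr3:47467896-47469171), with summits 7130 to 7212 nt after its start, and was called in all 8 lists. Ranked by −log10 p within its own list it stood at percentiles 94.7 to 99.0. Fold enrichment was 16.5, 25.1, 31.3 and 41.8 in C4-2B replicates 1 to 4 and 42.7, 37.6, 22.3 and 39.7 in MDV-R replicates 1 to 4. C4-2B replicate 1 was the lowest and MDV-R replicate 1 the highest, and the lines overlapped. The means were 28.7 ± 10.6 and 35.6 ± 9.09 (SD, n = 4 each). The log2 difference was 0.35 (SE 0.35, limma adjusted p = 0.518, 95% interval -0.34 to 1.04), and -0.05 with lists centred on their median.

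The IP side of the SCAP intron 1 peak was steadier than the ratio. It held 87, 86, 84 and 88 tags in C4-2B and 65, 75, 78 and 68 in MDV-R. All 4 C4-2B counts were above all 4 MDV-R counts before scaling. After scaling to the mean IP library they were 75.1, 86.4, 91.3 and 98.6 in C4-2B and 71.6, 82.7, 67.0 and 64.5 in MDV-R, where MDV-R replicate 2 passed C4-2B replicate 1. The log2 difference was -0.30 (SE 0.15, limma adjusted p = 0.115). It passed the threshold when lists were centred on their median (-0.28, limma adjusted p = 0.00264). It also passed without C4-2B replicate 1 (-0.37, limma adjusted p = 0.0117) or without MDV-R replicate 2 (-0.37, limma adjusted p = 0.0496). The call therefore depends on the scaling and on the libraries kept. Among all 9327 regions, 19.9% were lower in MDV-R by this measure and 14.3% higher, with a median difference of -0.04.

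The local background beside it was 9.99, 7.33, 5.51 and 3.93 times the library average in C4-2B and 1.82, 3.25, 7.45 and 2.47 times in MDV-R. MDV-R replicate 3 had the highest value of its line and lay inside the C4-2B range. The log2 difference of -0.97 (SE 0.51) had a limma adjusted p of 0.196, and without MDV-R replicate 3 it was -1.37 (limma adjusted p = 0.0339). These backgrounds rest on few input tags. They equal 3, 3, 2 and 1.20 input tags over the summit in C4-2B and 1.51, 3.21, 3.97 and 2.00 in MDV-R, where a fraction means that the caller used a wider window.

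The sequence at the SCAP intron 1 summit is not unique to SCAP. All 72 of the 30-nt words within 50 nt of the summit occurred again elsewhere in the hg38 chromosomes, in 25034 windows of 200 nt. The printed stretch is recognisable as LINE-1, a retrotransposon with many copies in the genome, lying in the direction of SCAP, a reading that used no repeat annotation. The authors kept uniquely mapped reads, and how many of the tags can be assigned to this copy was not tested. Of the 12085 intronic merged regions, 28.1% had at least 1 exact copy of the 30-nt word at the summit elsewhere and 13.4% at least 100, against 6.64% and 0.611% of 18993 exonic regions. Apart from the SCD start, with 7 of 72 words copied, the other member sites had no copy.

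The region in the last exon of SCAP (exon 23, chr3:47413770-47414154) lies in coding sequence, with summits from -158 to -75 nt relative to the end of the stop codon. The neighbourhood of stop codons is where m6A is best known to gather in mRNA. It was called in C4-2B replicates 2 to 4 and in all MDV-R lists. Fold enrichment was 7.86, 3.39 and 7.53 in those C4-2B lists and 6.26, 11.7, 3.96 and 8.25 in MDV-R. The lines overlapped. Scaled IP tags were 40.2, 46.7 and 39.2 in C4-2B and 30.8, 43.0, 30.9 and 22.8 in MDV-R, of which MDV-R replicate 2 alone exceeded a C4-2B list. With regions called in at least 3 lists of each line, fitted without C4-2B replicate 1, the log2 differences were 0.26 for fold enrichment (limma adjusted p = 0.676) and -0.43 for scaled tags (limma adjusted p = 0.0573).

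The other 2 SCAP regions were called in few lists. One over exon 19 and intron 19 (chr3:47414894-47415296) had a fold enrichment of 4.29 in C4-2B replicate 2 and 7.30 and 8.08 in MDV-R replicates 2 and 4. One in intron 18 (chr3:47416071-47416361) was called in MDV-R replicate 4 alone, at 5.87.

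ACACA (ENSG00000278540, chr17:37084992-37406836, minus strand) makes the malonyl-CoA from which fatty acids are built. The merged list used here has no region over it, although its start was called in all 8 lists, as were 469 regions of the joined lists (4.77% of 9828) that lie over no merged region. The peak (joined interval chr17:37406490-37407223) has its summits in the 5′UTR of exon 1, at 100 to 143 nt after the MANE start. Fold enrichment was 5.48, 6.64, 14.5 and 15.9 in C4-2B replicates 1 to 4 and 16.1, 14.4, 15.8 and 16.8 in MDV-R replicates 1 to 4. The C4-2B lists split into a low and a high pair, and the high pair reached the MDV-R range. The means were 10.6 ± 5.33 and 15.8 ± 1.01 (SD, n = 4 each). The log2 difference was 0.72 (SE 0.36, limma adjusted p = 0.192, 95% interval 0.01 to 1.42), and 0.32 with lists centred on their median.

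The IP tags at the ACACA start did not follow the ratio. There were 28, 22, 26 and 30 tags in C4-2B and 21, 18, 35 and 22 in MDV-R, or 24.2, 22.1, 28.2 and 33.6 and 23.1, 19.9, 30.1 and 20.9 after scaling. The lines overlapped, and the log2 difference of scaled tags was -0.20 (SE 0.20, limma adjusted p = 0.465). The background moved instead. It was 9.99, 7.33, 2.75 and 3.28 times the library average in C4-2B and 1.21, 1.01, 3.75 and 1.24 times in MDV-R. Except for MDV-R replicate 3, the MDV-R values were below every C4-2B value.

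The background at the ACACA start was lower in MDV-R, with a log2 difference of -1.72 (SE 0.52, limma adjusted p = 0.0300). Among the 3 measures at the 3 sites called in all 8 lists it was the one difference that passed the threshold before any other scaling or left-out library. It comes from the fit on the joined lists, chosen after seeing that no merged region overlaps ACACA, in which 12.9% of the 9828 regions were lower in MDV-R. The value equals 3, 3, 1 and 1 input tags in C4-2B replicates 1 to 4 and 1, 1, 2 and 1 in MDV-R, so no list had more than 3 input tags behind it. At that depth 1 input tag is worth 2.75 times the library average in C4-2B replicate 3 and 1.21 times in MDV-R replicate 1, whose input was deeper. The call was lost with lists centred on their median (-1.21, limma adjusted p = 0.0980). It was also lost without C4-2B replicate 1 (-1.39), C4-2B replicate 2 (-1.54), MDV-R replicate 1 (-1.60), MDV-R replicate 2 (-1.51) or MDV-R replicate 4 (-1.61).

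**Figure D4:**
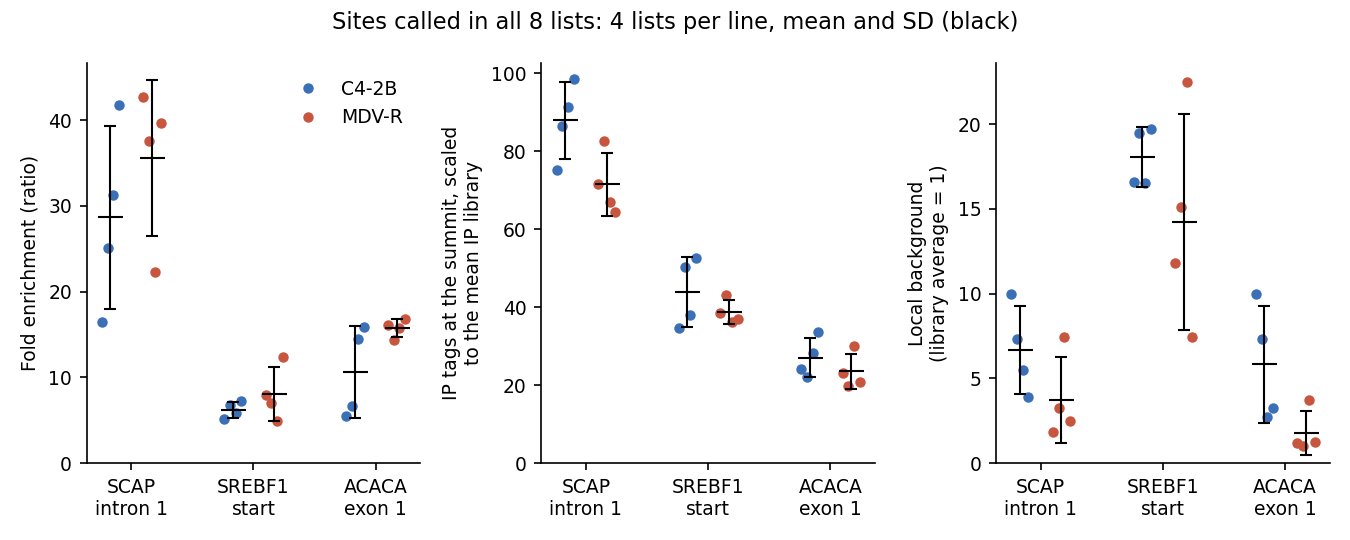
Fold enrichment, scaled IP tags and local background (in multiples of the library average) at the 3 sites called in all 8 lists, 1 point per list, C4-2B blue and MDV-R red, with the mean and SD of 4 lists in black. The lines overlap in every panel, the SCAP intron 1 tags run from 64.5 to 98.6, and the ACACA background is at or below 3.75 in all MDV-R lists.

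The second ACACA site (chr17:37264519-37265011), in intron 10 of the 56-exon MANE transcript, was called in 2 lists of each line. Fold enrichment was 9.75 and 5.06 in C4-2B replicates 2 and 4 and 11.0 and 4.75 in MDV-R replicates 2 and 3. The lines overlapped, with IP tags of 27 and 28 against 17 and 19.

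SCD (ENSG00000099194, chr10:100347233-100364826, plus strand), the desaturase, held peaks in MDV-R replicate 4 alone, the longest list. One lay over its start (merged region chr10:100347008-100347299), with the summit in the 5′UTR 22 nt after the start of transcription, a fold enrichment of 3.79 and 21 IP tags. It stood at percentile 8.35 of its list by −log10 p, with a −log10 q of 5.67. The other lay in intron 1 (chr10:100347907-100348145), with a fold enrichment of 4.42 and 59 tags. Both sites differ by 1 list between the lines, with an exact Fisher p of 1.00.

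The 4 genes without a peak include the second SREBP, both INSIG proteins and the synthase. A list names only what passed the caller's limit (a −log10 q of at least 2.00), so a gene without a peak may have been unmethylated, little expressed or below that limit, and these cannot be told apart here. SREBF2 (ENSG00000198911, chr22:41833105-41907306, plus strand), whose product mainly drives cholesterol genes, had its nearest peak 1849 nt before its start, in the 3′UTR of CCDC134. A larger CCDC134 peak was called in all 8 lists, with fold enrichments of 8.49 to 13.1 in C4-2B and 14.6 to 25.4 in MDV-R.

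INSIG1 (ENSG00000186480, chr7:155297776-155310235, plus strand) had no peak in its span, but its divergent noncoding neighbour INSIG1-DT did, in C4-2B replicates 2 to 4 and in all MDV-R lists. The overlapping peaks of these 7 lists had fold enrichments of 5.69, 4.16 and 4.50 in C4-2B and 7.24, 5.71, 8.05 and 8.47 in MDV-R. All 4 MDV-R values lay above all 3 C4-2B values, the closest pair being 5.71 and 5.69, and C4-2B replicate 1 had no value. MDV-R replicate 3 held a second peak there, the nearest to INSIG1, with a fold enrichment of 4.86, which lay inside the C4-2B range. INSIG2 (ENSG00000125629, chr2:118088452-118110997, plus strand) had no peak within 10 kb, the nearest being 73340 nt away.

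FASN (ENSG00000169710, chr17:82078338-82098294, minus strand), with 43 exons and a spliced length of 8464 nt, held no peak over its whole length. In sequence assigned to no gene, ending 2113 to 2173 nt before its start, all 4 C4-2B lists had a peak, with fold enrichments of 4.95, 8.13, 5.35 and 6.97. Of the MDV-R lists, replicate 2 had one there, at 5.03, and replicate 4 had one nearer to the start, at 4.21. Further upstream, in an intron of CCDC57, all 8 lists had a peak, at 6.47 to 23.4 in C4-2B and 16.9 to 23.2 in MDV-R. These flanking peaks are not members, and their differences were not tested.

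**Figure D5:**
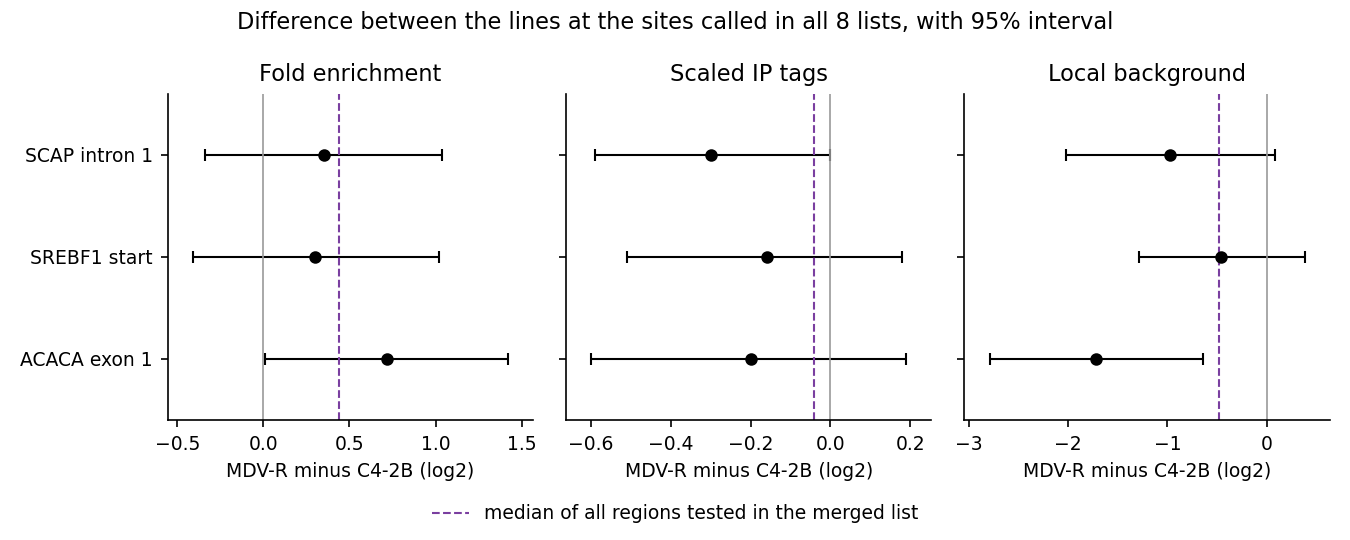
Difference between the lines (MDV-R minus C4-2B, log2, points) with its 95% interval (bars) at the 3 sites called in all 8 lists, for fold enrichment, scaled IP tags and local background, with the median of all regions tested as a dashed line. The intervals include the dashed line except for the ACACA background, at -1.72, against a median of -0.48.

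Over all 9327 regions, limma called 3.02% higher and 0.214% lower in MDV-R for fold enrichment, and 1.80% higher and 13.4% lower for local background. The medians were 0.44 for fold enrichment and -0.48 for background, so the ratio was higher in MDV-R at most of these regions, which were called in every list. With lists centred on their median the balance of calls for fold enrichment turned, from 282 higher and 20 lower to 84 higher and 165 lower. The SREBF1 start and SCAP intron 1 differences, 0.30 and 0.35, were below that median.

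The wider pathway was counted from 3 lists of genes that leave out the members. A region was counted where it overlapped the span of a gene, so the strongest summit of some lay in another gene. Genes with a region whose strongest summit lay in the gene itself numbered 12 (cholesterol), 12 (fatty acids) and 18 (regulation). The counts and medians below keep the regions with summits in other genes. Of 20 cholesterol synthesis genes, 13 held merged regions, 17 in all, of which 7 were called in all 8 lists. Their median log2 difference was 0.58 for fold enrichment and -0.33 for scaled tags. Among these 7, the region in the span of TM7SF2 had its summit in ZNHIT2 and the one in the span of CYP51A1 in AKAP9. The cholesterol regions were called in more MDV-R than C4-2B lists at 10 of 17 and in more C4-2B lists at 0. Over all 36076 called regions these shares were 49.7% and 18.4%, and the MDV-R lists were longer (23880 to 30645 peaks, against 13191 to 24746), so the counts of the 3 lists are a description. Of 21 genes of fatty acid synthesis and desaturation, 15 held 47 regions, with 21 in more MDV-R lists and 15 in more C4-2B lists. For their 7 regions called in all 8 lists the medians were 0.53 and -0.30, with 0 called for fold enrichment and 1 higher and 3 lower for scaled tags. Over all 9327 regions tested, 14.3% were called higher and 19.9% lower for scaled tags. For fold enrichment these shares were 3.02% and 0.214%. Among these 7, the FADS2 region had its summit in FEN1 and the TECR regions theirs in DNAJB1. Only those of ACACB, MCAT and OXSM had the summit in the listed gene. Of 21 genes of SREBP regulation and sterol uptake, 18 held 57 regions, with 29 in more MDV-R lists and 7 in more C4-2B lists. Their 16 regions called in all 8 lists had medians of 0.56 and -0.12, with 1 higher for fold enrichment and 1 lower for scaled tags. Regions lower in scaled tags lay, among others, in MSMO1 (cholesterol), in the span of FADS2 with the summit in FEN1, in MCAT and OXSM (fatty acids), and in UBE2G2 (regulation), with log2 differences of -0.44, -0.80, -0.42, -0.36 and -0.58. The fold enrichment medians of the 3 lists were above the 0.44 of all regions, and the tag medians below the -0.04 of all regions.

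ACACB encodes the sister enzyme of ACACA, which sits at mitochondria and limits fatty acid oxidation. Its 3′UTR region (chr12, from 109267156) had scaled IP tags of 15.5, 17.1, 15.2 and 15.7 in C4-2B and 28.6, 29.8, 29.2 and 32.2 in MDV-R. Every MDV-R value exceeded every C4-2B value, and the log2 difference was 0.92 (limma adjusted p = 1.10e-04). Fold enrichment did not separate, at 7.22 to 13.5 and 7.63 to 16.1, with a log2 difference of 0.23 (limma adjusted p = 0.683). The background was 1.00 to 3.33 times the library average in C4-2B and 2.36 to 9.38 times in MDV-R (limma adjusted p = 0.0608).

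UBE2G2, a ubiquitin-conjugating enzyme of endoplasmic reticulum protein disposal, was picked for mention after its values were seen. It held the 1 region of the regulation list that was higher in fold enrichment (3′UTR, chr21, from 44771087), at 3.02 to 3.98 in C4-2B and 6.89 to 15.8 in MDV-R, with a log2 difference of 1.36 (limma adjusted p = 0.0198). Its scaled tags reached at most 133 in C4-2B and 109 in MDV-R (log2 difference -0.29, limma adjusted p = 0.108). The background was 87.9 to 105 times the library average in C4-2B and 14.8 to 48.8 times in MDV-R, with a difference of -1.66 (limma adjusted p = 0.00287). The UBE2G2 region counted above as lower in scaled tags is another one of its 3′UTR (from 44769202). There the log2 difference was -0.58 for scaled tags (limma adjusted p = 4.86e-04) and 0.60 for fold enrichment (limma adjusted p = 0.280).

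Regions called in 4 lists of one line and none of the other were found at 4 genes of the fatty acid list, 1 of its 47 regions in MDV-R and 3 in C4-2B, where the shares over all called regions were 3.68% and 1.22%. The malic enzyme gene ME1, an NADPH source, had one in an intron in MDV-R (chr6, from 83404155, fold enrichment 5.42 to 8.41). In C4-2B they lay at the elongase gene ELOVL7 (intron, chr5, from 60759841, 5.54 to 10.6), at the elongase gene ELOVL5 (summit outside genes, chr6, from 53348989, 4.68 to 13.9) and in the span of TECR, the reductase of elongation, where the summit lies in the 5′UTR of DNAJB1 (chr19, from 14552540, 4.20 to 7.65). The exact Fisher p was 0.0286 for each, with an adjusted p of 0.584. At ELOVL7 and TECR all 72 words of 30 nt around the summit occurred elsewhere, at ME1 44 of 72, and at ELOVL5 none.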

How the data were processed

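The authors fragmented total RNA to about 100 nt, enriched m6A with an antibody, prepared stranded libraries, aligned reads to hg38 with STAR 2.7.0, removed duplicates and reads with several alignments using SAMtools 1.10, and ran MACS2 3.0.0a6 per replicate on IP against input. The 16 libraries gave 8 deposited peak lists of IP libraries and 1 merged list of regions without values. The deposited fold enrichment is the ratio of IP pileup to the background near the summit. The deposited −log10 p and −log10 q values are the caller's, and the deposited score is 10 times the −log10 q in 99.9% of peaks. The authors' other columns, positions and summits, were read as coordinates. Their differential test used DESeq2, edgeR and QNB within DEQ on read counts that were not analysed here.

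IP tags and local background were solved from fold enrichment and p (solved for 99.98 to 100% of peaks per list). The narrowest peaks (239 to 293 nt) and the steps of the background do not match the stated extension of 100 nt together with the stated genome size of 300 Mb, so depth is given relative to the mean library and tags are scaled to it, not to library totals. The binomial interval covers counting error only. SEs and intervals of log2 differences come from limma, which draws the spread between lists at a site towards that of all regions tested. For fold enrichment the SE was therefore nearly the same at the SREBF1 start, SCAP intron 1 and the ACACA start (0.36, 0.35 and 0.36). Summits were classed with GENCODE release 44. Regions were counted as called at an overlap of 1 bp. Lists were compared with Fisher's exact test, and log2 values at regions called in all 8 lists with limma 3.58.1 (R 4.3.3, mean-variance trend), both adjusted by Benjamini-Hochberg over all regions, threshold 0.05. ACACA was fitted on the joined lists, an alternative chosen after seeing that no merged region overlaps it. Pathway genes were named when a region passed limma in 1 of the 3 measures with fold enrichment and tags in the same direction, or was called in 4 lists of one line and 0 of the other. Some results on single genes of these lists are not reported here. Members, lists and tests were chosen with earlier results of these data known. The recovery and the fits were tested on simulated data.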

Additional observations from a re-analysis of the deposited data

Results flagged for a closer look

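Among 27 groups of 4 values at the member sites, 1 held a value far from its other 3: the local background at the ACACA start in MDV-R replicate 3, at 3.75 times the library average, where the other MDV-R lists stood at 1.21, 1.01 and 1.24. Chance flags about 1 group in 20. That value corresponds to 2 input tags, against 1 in each of the other 3.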

How the results depend on the processing

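Of 294 alternative values, 233 kept their direction and side of the threshold or, for counts and shares, stayed near the main value (counts within 1.5 times, shares within the 95% interval). Centring each list on its median turned the fold enrichment difference at the SREBF1 start to -0.10, its background difference to 0.0315 and the SCAP intron 1 fold enrichment difference to -0.0543. Quantile normalisation turned the first of these to -0.14 and the second to 0.0592. The SCAP intron 1 tags passed the threshold when centred (-0.28), quantile normalised (-0.27), or without C4-2B replicate 1 or MDV-R replicate 2 (both -0.37). The ACACA background lost it when centred (-1.21) and with regions called in at least 3 lists of each line (-1.72, limma adjusted p = 0.0579). The cause was not tested.

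Leaving out 1 library at a time gave log2 differences in fold enrichment of 0.07 to 0.51 at the SREBF1 start, 0.11 to 0.56 at SCAP intron 1 and 0.45 to 0.96 at ACACA. For scaled tags the ranges were -0.27 to -0.07, -0.37 to -0.24 and -0.33 to -0.09. For background they were -0.72 to -0.18, -1.37 to -0.69 and -2.14 to -1.39. The uneven call in SREBF1 exon 2 was a difference of 2 to 4 lists.

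Over all regions, leaving out 1 library gave 19 to 2052 regions higher in fold enrichment and 3 to 72 lower, 1053 to 1419 and 1383 to 2784 for tags, and 85 to 143 and 548 to 3143 for background. The highest counts of 2052, 72 and 3143 were those without MDV-R replicate 3. It gave 1337 to 2048 regions called in MDV-R alone, 463 to 1079 in C4-2B alone (1079 without C4-2B replicate 1), and 2 to 4 member regions called in every list (4 without C4-2B replicate 1). Cutting every list to the length of the shortest gave 516 regions in MDV-R alone and 1 member region called in every list.

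Centring gave 84 regions higher and 165 lower in fold enrichment, 2322 higher and 2725 lower in tags, and 617 higher and 909 lower in background. Quantile normalisation gave 77 and 171 for fold enrichment, 2648 higher for tags, and 615 and 676 for background. Regions called in at least 3 lists of each line gave 36 lower in fold enrichment, and 2037 higher and 2853 lower in tags. Members wholly inside their gene numbered 5 of 8. The share of member summits with the motif was 43.6% within 25 nt, 92.3% for DRACH, 28.2% on the opposite strand and 17.9% at 300 nt.

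Deviations of log2 fold enrichment from the mean of each line correlated at -0.0054, 0.0251, -0.0749 and 0.0188 between same-numbered libraries. No shared effect of the replicate number was thus seen in this measure. These values do not show whether same-numbered libraries were handled as pairs. With the replicate block, 322 regions were higher and 25 lower in fold enrichment, and the differences at the 3 sites stayed on their side of the threshold (limma adjusted p = 0.0108 for the ACACA background, 0.181 to 0.594 elsewhere).

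Depth limits these values. The local background at the ACACA start rests on 1 to 3 input tags per list, inputs of MDV-R were deeper throughout, and levels are known at called peaks alone.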
